A study of Oryctolagus cuniculus with 4 samples.

Results

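ARG1, the gene of arginase 1, was followed as 1 of the 18475 features measured in the cells of rabbit bladder mucosa. The member is the feature row that carries the symbol ARG1, and its molecules were counted in every cell class and sample, with the emphasis on C1Q-positive macrophages and on cells high in S100A8 and S100A9. Droplet-based single-cell RNA sequencing had been carried out on adult New Zealand rabbits. The Injury group (Injury_1 and Injury_2) was taken on day 10 after focal resection of the bladder mucosa, and the Normal group (Normal_1 and Normal_2) came from bladder without resection. Each group had 2 rabbits and 1 library per rabbit, so comparisons between conditions rest on 2 against 2.

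Arginase 1 splits arginine into urea and ornithine. In the liver this closes the urea cycle, and in myeloid cells it draws on the same arginine that nitric oxide synthase (NOS2) uses, while ornithine feeds the synthesis of polyamines and proline. In rodents the gene is a usual marker of macrophages activated by interleukin 4 and of myeloid cells that restrain T cells, whereas in humans the protein is stored mainly in granules of neutrophils. C1QA, C1QB and C1QC, the chains of complement C1q, mark resident-type macrophages, and S100A8 and S100A9 form calprotectin, abundant in neutrophils and fresh monocytes.

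The matrices held 5823 to 6884 cell barcodes per sample, and 21945 cells passed the filter in all (4308 to 6081 per sample). A unique molecular identifier (UMI) marks 1 captured RNA molecule, and the matrices summed to between 28745017 UMIs in Normal_1 and 47881609 in Normal_2. Pairs of libraries shared 8 to 13 cell barcodes. ARG1 had 14360 UMIs in the cells kept: 6361 and 3906 in the Injury samples against 2226 and 1867 in the Normal samples. The study itself had used ARG1 as 1 of its markers of macrophages, so here the gene was kept out of the integration, the clustering and the naming of clusters. There were 1640 myeloid cells, 788 and 581 in the Injury samples against 137 and 134 in the Normal samples.

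Nearly all ARG1 lay in myeloid cells. They held 96.7% and 95.5% of the ARG1 UMIs of the Injury samples and 98.9% and 96.6% of those of the Normal samples, though they were only 2.22% to 13% of the cells. All 4 samples were alike in this. Within a sample, C1Q macrophages carried 25.2% to 43.7% of the ARG1 UMIs, S100A8/S100A9-high cells 21.1% to 25.6%, and cells high in MHC class II genes without C1Q 9.75% to 23.4%. The rest of the myeloid share lay in 258 myeloid cells of clusters that could not be named.

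Levels were expressed as CPM, the ARG1 UMIs of a class scaled to all UMIs of that class in that sample, where 10000 CPM is 1% of the UMIs. In C1Q macrophages (564 cells) ARG1 stood at 1381 CPM in Injury_1 and 1068 CPM in Injury_2, against 4261 CPM in Normal_1 and 3384 CPM in Normal_2. In S100A8/S100A9-high cells (444 cells) the levels were 1290 and 1137 CPM in the Injury samples against 4330 and 2802 CPM in the Normal samples. The Normal samples lay above the Injury samples in both classes, without overlap. MHC class II-high cells (374 cells) stood at 779, 532, 1434 and 559.6 CPM, with Normal_2 between the Injury samples.

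Outside the myeloid cells the gene was near the floor. T and NK cells came next with a mean of 11.4 CPM ± 7.71 (SD, n = 4), and epithelial cells had 5.86 CPM ± 3.98 (SD, n = 4). Fibroblasts, smooth muscle cells and pericytes, and endothelial cells followed with means of 2.66, 2.32 and 1.54 CPM. Mast cells held a single ARG1 UMI. B and plasma cells and glia held none, where a count of 0 allows up to 4.77 CPM in the 146 B and plasma cells of Injury_2 and up to 13.1 CPM in the 47 glia of that sample, which covers counting error only.

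**Figure D1:**
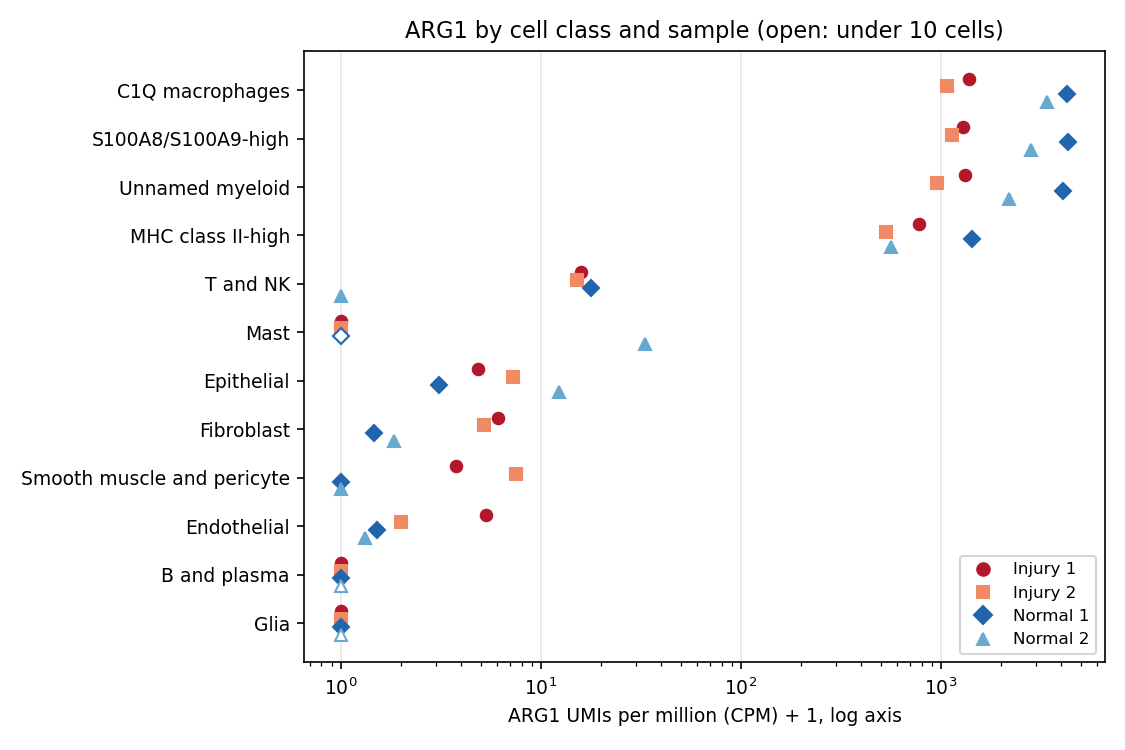
ARG1 level (CPM plus 1, log axis) of each cell class, with 1 point per sample; open points are sums of fewer than 10 cells. The 4 myeloid classes sit between 532 and 4330 CPM in every sample, and the other classes at 32.0 CPM or less.

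The order of the means was C1Q macrophages (2523 CPM ± 1547, SD, n = 4), S100A8/S100A9-high cells (2390 ± 1496), unnamed myeloid cells (2132 ± 1397), MHC class II-high cells (826 ± 420) and then T and NK cells. Neighbours were compared within samples on log2(CPM + 10). C1Q macrophages and S100A8/S100A9-high cells differed by 0.06 ± 0.16 (SD), with macrophages higher in 2 of 4 samples (exact sign-flip permutation test, p = 0.625, adjusted p = 0.982). Between MHC class II-high cells and T and NK cells the difference was 5.27 ± 0.64, higher in 4 of 4 samples, at the smallest p that 4 pairs allow (exact permutation test, adjusted p = 0.55). None of the 11 neighbouring pairs could pass the threshold in a design of this size, and below T and NK cells neighbours swapped places between samples or were at 0.

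Whether ARG1 differed between C1Q macrophages and S100A8/S100A9-high cells depended on the setting. In the edgeR quasi-likelihood test, with the rabbit as a block, the log2 difference of macrophages minus S100A8/S100A9-high cells was -0.38 ± 0.17 (SE), with an adjusted p of 0.0887 over 2912 genes. The difference passed the threshold with DESeq2 (-0.39, adjusted p = 0.0247) and without Normal_2 (-0.62, adjusted p = 0.0131), and in 5 of 19 other settings in all, 1 of them with the opposite sign (against the smaller S100A8/S100A9-high sub-cluster alone). Of the genes tested 19.1% were called higher and 17.8% lower in macrophages. The sign hangs on the scaling: TMM, the usual factor that sets the median of the genes near equality, put ARG1 below, and plain library totals put it 0.09 ± 0.13 above (adjusted p = 0.579). The median of all genes was 0.08 with TMM and 0.59 with library totals, and of the calls 51.8% were higher in macrophages with TMM and 83.6% with totals.

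The S100A8/S100A9-high class held 2 kinds of cells that differed in ARG1. The larger sub-cluster (234 cells, median 8502 UMIs) was led by SERPINB2, an inhibitor of plasminogen activators, which stood at 2110, 2544, 5869 and 1674 CPM (Injury_1, Injury_2, Normal_1, Normal_2), and had CSF1R, the receptor for macrophage colony-stimulating factor, at 79 to 344 CPM. LYZ, lysozyme, stood second among its genes over all cells, but it had no UMI there in Injury_1 or Normal_2, against 1638 CPM in Injury_2 and 4123 CPM in Normal_1, so it marked the cells of only 2 rabbits. The smaller (210 cells, median 698.5 UMIs) was led by S100A8, S100A12 and S100A9, held the neutrophil chemokine receptor CXCR1 at 95.2 CPM and the granule protein gene LTF at 190.5 CPM over all its cells, and had no UMI of CSF1R in any sample. SERPINB2 was at 0 to 104 CPM in it, apart from 3742 CPM in the 5 cells of Normal_1. These genes took part in the clustering and describe the sub-clusters. The first is called the SERPINB2-high and the second the S100A12-high sub-cluster here. In the S100A12-high cells CXCR1 had 13, 3, 0 and 0 UMIs and LTF 26, 5, 0 and 1 (Injury_1, Injury_2, Normal_1, Normal_2). Other neutrophil genes did not all go with them. BPI stood at 17.9 CPM there against 73.4 CPM in the SERPINB2-high cells, and CEBPE at 23.8 against 0 CPM. MPO, CTSG, CAMP and MMP8 stood at 0 CPM in both sub-clusters.

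ARG1 stood at 1369, 1194, 4485 and 3022 CPM in the SERPINB2-high sub-cluster (Injury_1, Injury_2, Normal_1, Normal_2). In the S100A12-high sub-cluster it stood at 586 CPM in Injury_1 from 62 UMIs and 195 CPM in Injury_2 from 9 UMIs. No ARG1 UMI was seen in the 5 cells of Normal_1 or the 15 of Normal_2, where a count of 0 allows up to 660 and 258 CPM. The SERPINB2-high sub-cluster lay above the other in each sample and held 95.4% to 100% of the ARG1 UMIs of the class, against 89.8% to 96.5% of its UMIs.

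In the edgeR test over the 3 samples with at least 10 cells of both, ARG1 was 2.45 ± 0.43 (SE) higher on the log2 scale in the SERPINB2-high sub-cluster (adjusted p = 4.6e-08, higher in 3 of 3 samples). Of the 1101 genes tested 35.0% were called higher, so ARG1 was among many. With each cell thinned to 500 UMIs, 44.7% and 38.7% of the SERPINB2-high cells of the Injury samples kept an ARG1 UMI against 17.0% and 8.0% of the S100A12-high cells. DCN, a fibroblast gene, stood at 601 CPM in the S100A12-high sub-cluster and at 75.4 CPM in the SERPINB2-high one, and the part of stray RNA in the ARG1 of the former was not tested.

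Set against each sub-cluster alone, macrophages changed sides. The log2 difference of C1Q macrophages was -0.49 against the SERPINB2-high cells (adjusted p = 0.0265) and 1.98 against the S100A12-high cells (adjusted p = 1.4e-04), both by edgeR and chosen after the sub-clusters had been seen.

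**Figure D2:**
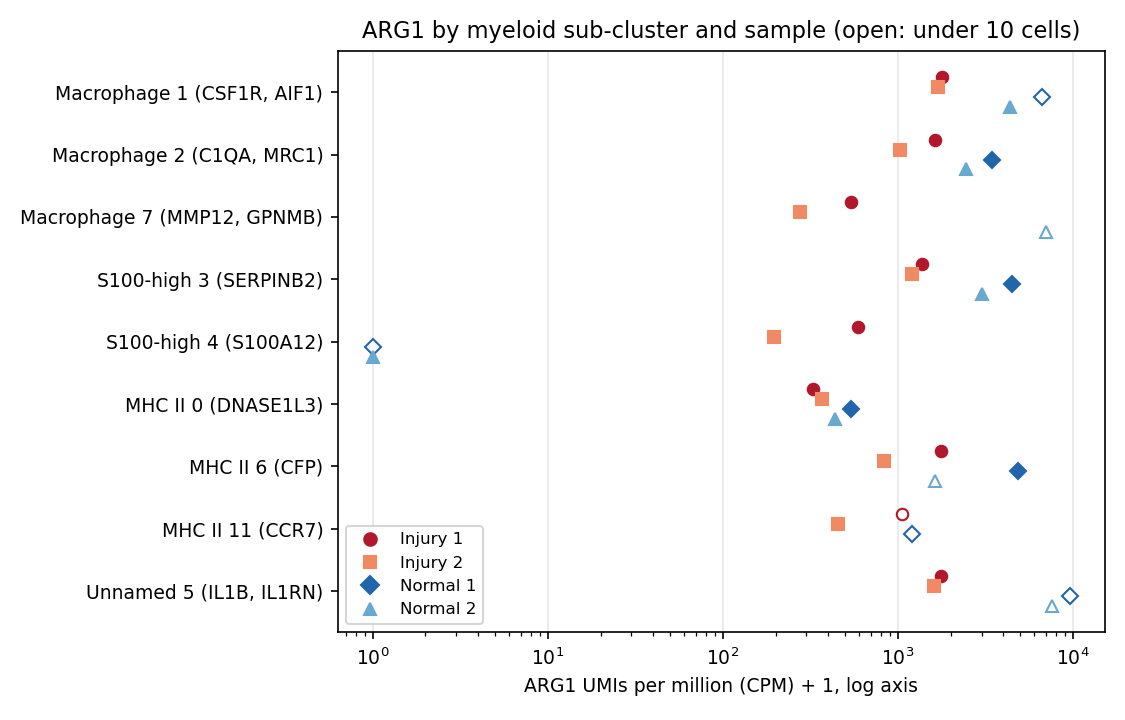
ARG1 level (CPM plus 1, log axis) of the myeloid sub-clusters, named by class, number and leading genes, with 1 point per sample; open points are sums of fewer than 10 cells. Normal samples sit to the right of Injury samples in macrophages 1 and 2, in S100-high sub-cluster 3 (SERPINB2-high) and in unnamed sub-cluster 5. They do so by less in MHC II sub-cluster 0 (DNASE1L3), whereas S100-high sub-cluster 4 (S100A12-high) has both Normal samples at 0.

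The C1Q macrophages fell into 3 sub-clusters. The first, led by CSF1R and AIF1, an actin-binding protein of macrophages, had ARG1 at 1794 and 1691 CPM in the Injury samples and 4341 CPM in Normal_2, with 7 cells at 6643 CPM in Normal_1, where these cells had no C1QA UMI. The second, led by C1QA and by the scavenging receptors MRC1, STAB1 and CD163, had 1619, 1026, 3462 and 2454 CPM. Leading genes were taken against all other cells, and CSF1R did not set the first sub-cluster apart from the second. It stood at 1350, 1066, 151 and 1099 CPM in the first against 1598, 1450, 516 and 1835 CPM in the second. The third was led by MMP12, macrophage elastase, and GPNMB, a glycoprotein of lysosome-rich macrophages, and 82 of its 83 cells came from the Injury samples. It had the lowest ARG1 of the macrophages in those samples, 537 CPM in Injury_1 and 275 CPM in Injury_2.

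MHC class II-high cells were split as well. The main sub-cluster, led by DNASE1L3, a secreted DNase, stood at 326, 368, 536 and 433 CPM. Its Injury samples lay below its Normal samples, with a ratio of the Normal to the Injury mean of 1.40 against 3.12 in C1Q macrophages. The sub-cluster led by CFP, properdin of the alternative complement pathway, reached 1757, 835 and 4872 CPM in the samples with at least 10 cells. ARG1 was 1.36 ± 0.27 (SE) higher on the log2 scale, or 2.56-fold, in C1Q macrophages than in MHC class II-high cells (edgeR, adjusted p = 0.00335, higher in 4 of 4 samples), where 22.4% of 3420 genes were called higher. The highest single levels were in an unnamed myeloid sub-cluster led by IL1B, IL1RN and CXCL8, with 1758 and 1607 CPM in the Injury samples, and 9586 and 7533 CPM from only 9 and 6 cells in the Normal samples.

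The name of the C1Q macrophages was held against their defining genes. A UMI of C1QA, C1QB or C1QC was seen in 45.7% of the cells of the class, against 4.95% of the S100A8/S100A9-high cells, 2.41% of the MHC class II-high cells and 0.886% of the fibroblasts. By sub-cluster the share was 31.0% (CSF1R and AIF1), 66.9% (C1QA and MRC1) and 27.7% (MMP12 and GPNMB), so C1Q detection did not cover the class. Cells with a C1Q UMI had ARG1 at 1383, 1049, 3061 and 2859 CPM, and cells of the class without one at 1379, 1076, 6579 and 5198 CPM. The 2 kinds were close in the Injury samples, while in the Normal samples the cells without C1Q were higher, from only 10 and 11 cells. Within the CSF1R and AIF1 sub-cluster of Normal_2 the order was reversed, at 4175 CPM without C1Q (8 cells) and 4452 CPM with it. In the C1QA and MRC1 sub-cluster the Normal cells without C1Q, 3 in each sample, stood at 6398 and 7487 CPM. Those with C1Q stood there at 3061 and 1757 CPM (Normal_1 and Normal_2). The edgeR difference of cells with C1Q minus cells without was -0.41 ± 0.18 (SE) on the log2 scale and did not pass the threshold (adjusted p = 0.632).

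ARG1 was lower in the C1Q macrophages of the Injury group. The mean was 1224 CPM ± 221 (SD, n = 2) in Injury and 3822 CPM ± 620 (SD, n = 2) in Normal, and the 2 groups did not overlap. The edgeR test gave a log2 difference of -1.80 ± 0.28 (SE), 3.49-fold lower in Injury, with an adjusted p of 0.0467. Of 3995 genes tested 0.275% (11 genes) were called lower and 0.200% (8 genes) higher, against 12 lower and 18 higher with library totals in place of TMM. A two-sided exact permutation test on the 4 levels alone gave p = 0.33, the smallest that 2 against 2 allows.

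The direction was the same under each of 19 other settings, but 10 of them moved the adjusted p above the threshold. Without the MMP12 and GPNMB sub-cluster the log2 difference was -1.35 (adjusted p = 0.158), in macrophages with a C1Q UMI it was -1.44 (adjusted p = 0.0941), and without Injury_1 it was -1.91 (adjusted p = 0.578). The share of that sub-cluster in the class moved with the condition, and how much of the difference it carries was not tested beyond these values. C1QA itself went from a mean of 6776 CPM in Normal to 2064 CPM in Injury (adjusted p = 0.158).

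**Figure D3:**
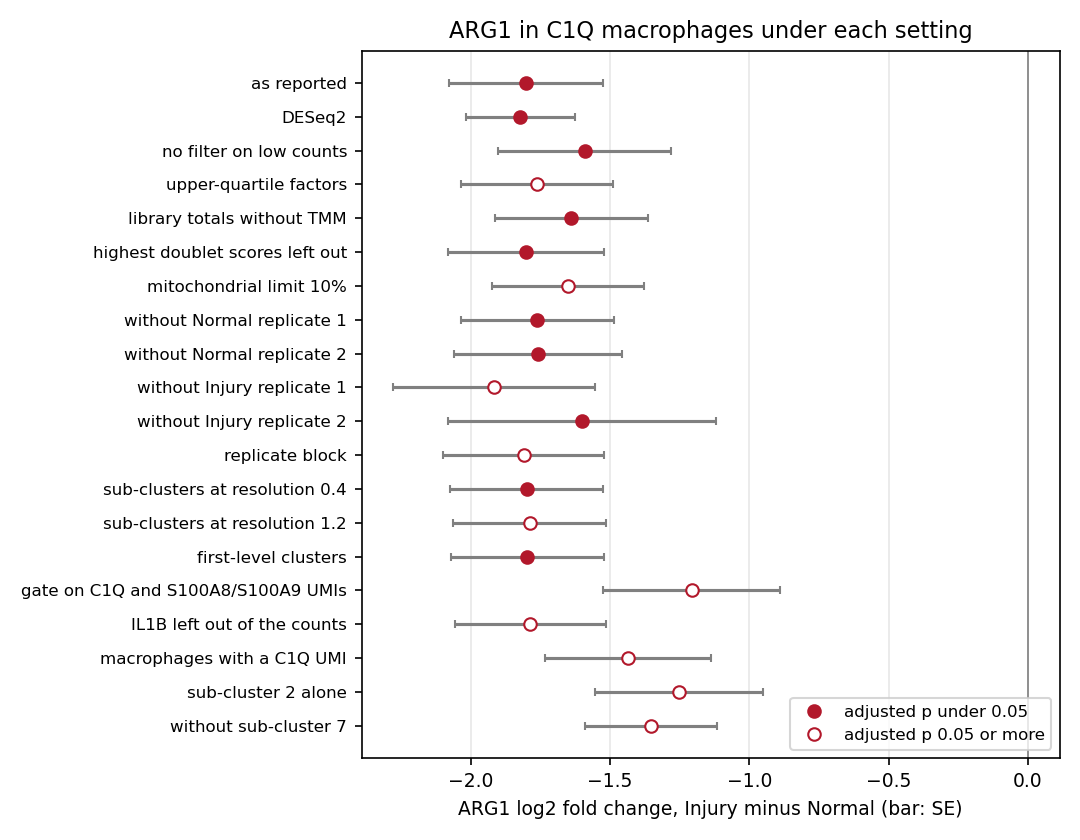
log2 difference of ARG1 between Injury and Normal in C1Q macrophages (x axis; bars are the SE) as reported and under each other setting (y axis); filled points have an adjusted p under 0.05. All 20 points lie between -1.91 and -1.21, below 0, and 10 of them are filled.

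Other genes called beside ARG1 in this comparison were few, and their number hung on single libraries, with 0 called without Injury_1 (139 at an unadjusted p under 0.05) and 332 without Normal_2. Lower in Injury were CX3CR1, the fractalkine receptor (log2 difference -3.89 ± 0.43), DNASE1L3 (-3.78 ± 0.52), C4BPA of complement control (-3.75 ± 0.29), CRYAB, the small heat shock protein alpha-B crystallin (-2.60 ± 0.34) and LYVE1, a hyaluronan receptor of resident macrophages (-1.87 ± 0.29). Higher were GPNMB (7.55 ± 0.43) and LGALS3, galectin 3 (3.09 ± 0.40). MMP12 and CHI3L1 had no UMI in either Normal sample and stood at 428 and 342 CPM on average in Injury. Of the 8 tested genes of an alternative activation list, in which ARG1 was not counted, 1 was lower (LYVE1) and none higher. Of all 3995 genes tested 0.275% were called lower and 0.200% higher. The median of that list was -0.64 against 0.03 for all genes. Of 13 inflammatory genes none was called, with a median of -0.53.

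S100A8/S100A9-high cells moved to the same side. Their mean was 1213 CPM ± 108 (SD, n = 2) in Injury and 3566 CPM ± 1081 (SD, n = 2) in Normal, without overlap, and edgeR gave -1.55 ± 0.35 (SE) with an adjusted p of 0.801. In that comparison 0 of 2453 genes (0%) were called lower and 0 higher by edgeR, 144 genes had an unadjusted p under 0.05, and DESeq2 called 11 genes, with ARG1 among them (adjusted p = 3.1e-05). Without Injury_1 ARG1 passed the threshold in edgeR as well (-1.58, adjusted p = 0.0235). In MHC class II-high cells the difference was -0.71 ± 0.43 (SE, adjusted p = 0.654), with 0 of 3310 genes (0%) called lower, 310 at an unadjusted p under 0.05 and 35 called by DESeq2. It changed sign without Normal_1, to 0.07, and passed the threshold without Normal_2 (-1.21, adjusted p = 0.00146).

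The effect was not shown to differ between the 2 main classes. The interaction of condition and class was -0.36 ± 0.31 (SE) on the log2 scale with an adjusted p of 0.827, where a value below 0 means a larger fall in C1Q macrophages, and it came to 0.0058 without Normal_2.

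Cells were compared for detection after thinning each to 1000 UMIs, since shallow cells miss molecules. In C1Q macrophages 56.4%, 46.1%, 73.2% and 64.0% of cells then kept an ARG1 UMI (Injury_1, Injury_2, Normal_1, Normal_2), with 0 to 3 shallower cells left out per sample. The mean of the Injury samples minus that of the Normal samples was -17.3 percentage points (exact permutation test, p = 0.33). Without thinning the shares were 82.6%, 71.9%, 78.9% and 71.2%, with no such gap, at median depths of 6358.5 and 5648.5 UMIs in the Injury samples against 3038 and 4540.5 in the Normal samples.

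In S100A8/S100A9-high cells the thinned shares were 60.2%, 51.4%, 81.4% and 68.3%, after 125, 39, 3 and 13 cells had been left out, nearly all of them S100A12-high. Fibroblasts gave 0.45% at most and endothelial cells 0.33% at most in any sample. Their median depths were 7238 and 5843 UMIs over all samples. The part of stray RNA in the myeloid shares was not tested.

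The number of ARG1 molecules varied widely from one macrophage to the next. The median C1Q macrophage held 6, 3, 6.5 and 6.5 ARG1 UMIs in Injury_1, Injury_2, Normal_1 and Normal_2, and the highest held 53, 40, 77 and 121. Cells with 20 or more UMIs made up 14.4% and 10% of the Injury samples and 26.3% and 25% of the Normal samples. The tenth of cells with the most ARG1 carried 37.0% to 53.4% of a sample's ARG1 UMIs in this class. In the SERPINB2-high S100A8/S100A9-high cells the medians were 9, 8, 25.5 and 24, and 0% to 6.67% of cells had no ARG1 UMI, against 17.4% to 28.8% in C1Q macrophages. The SERPINB2-high cells were deeper, with a median of 8502 UMIs against 5655 in C1Q macrophages. With cells thinned to 1000 UMIs, means of 60.9% (Injury) and 83.5% (Normal) of the SERPINB2-high cells kept an ARG1 UMI. For C1Q macrophages these means were 51.2% and 68.6%.

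**Figure D4:**
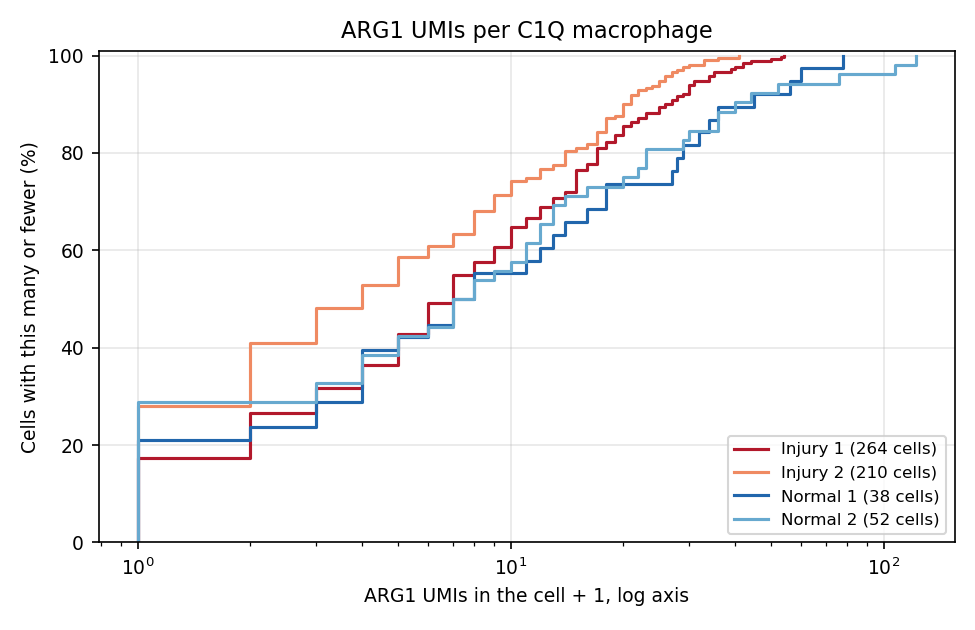
Cumulative share of C1Q macrophages (y axis, percent) by their number of ARG1 UMIs plus 1 (x axis, log axis), with 1 line per sample. The lines start at the 17.4% to 28.8% of cells without an ARG1 UMI, and the Normal lines run furthest right, up to 77 and 121 UMIs in a cell.

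Macrophages with and without an ARG1 UMI were then compared for all other genes, within the 3 rabbits with at least 10 cells of each kind (218 and 46 cells in Injury_1, 151 and 59 in Injury_2, 37 and 15 in Normal_2). Cells with ARG1 were deeper, with median totals of 6481, 6008 and 4977 UMIs against 5458.5, 4456 and 3844. Of 2557 genes 1.96% (50 genes) were called higher and 0.899% (23 genes) lower in cells with ARG1. The count depended on the cells and rabbits that entered. Cells of the MMP12 and GPNMB sub-cluster made up 15.1%, 13.2% and 2.70% of the cells with ARG1 and 26.1%, 28.8% and 0% of those without, and leaving that sub-cluster out left 22 genes called, 18 of them among the first 73. In cells of 3000 to 10000 UMIs 80 genes were called, 43 of them among the 73. Without Injury_1 5 genes were called and without Injury_2 29.

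CRYAB had the largest rise. It stood at 294, 548 and 2334 CPM in cells with ARG1 against 133, 48.4 and 145 CPM in cells without (Injury_1, Injury_2, Normal_2), a log2 difference of 2.67 ± 0.38 (SE, adjusted p = 0.00232). The same gene was lower in Injury than in Normal in the class as a whole, as ARG1 was. Then came F3, tissue factor (2.38 ± 0.41), PLA2G4A, the phospholipase that frees arachidonic acid (1.86 ± 0.31), INHBA, a chain of activin A (1.74 ± 0.39), SLC11A1, a metal transporter of phagosomes (1.70 ± 0.29), HBEGF, a growth factor that acts on the epidermal growth factor receptor (1.53 ± 0.29) and THBS1, thrombospondin 1. THBS1 was high in absolute terms, at 3639, 3951 and 2361 CPM with ARG1 against 1573, 962 and 1084 CPM without. Leaving out the MMP12 and GPNMB sub-cluster kept CRYAB (2.49, adjusted p = 0.00918), THBS1 (1.15, adjusted p = 0.00595) and PLA2G4A (1.71, adjusted p = 0.0309) past the threshold, whereas SLC11A1 (adjusted p = 0.069), HBEGF (0.108) and INHBA (0.161) no longer passed it and F3 was too low to be tested.

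Lower in the cells with ARG1 were LGALS3, at 5983, 3052 and 420.4 CPM against 15270, 5494 and 1157 CPM (-1.15 ± 0.15, adjusted p = 0.00192), FN1, fibronectin (-1.12 ± 0.19), the stress-response factor ATF3 (-1.08 ± 0.17) and LMNA, lamin A/C (-0.99 ± 0.17). Cells without ARG1 were the higher ones in each of the 3 rabbits for all of these. Without the MMP12 and GPNMB sub-cluster the difference of LGALS3 was -0.56 (adjusted p = 0.498) and that of FN1 changed sign to 0.05 (adjusted p = 0.965), while ATF3 (-1.17) and LMNA (-1.14) stayed past the threshold, both with an adjusted p of 0.00918. LGALS3, unlike the others named here, was also called higher in Injury.

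The 13 tested genes of an inflammatory list had a median log2 difference of 0.54 against 0.00 for all genes. With ARG1 4 of them were higher and none lower, against 1.96% higher and 0.899% lower of all 2557 genes tested. The 4 were IL1A (1.06 ± 0.26), the costimulatory ligand CD80 (1.17 ± 0.23), TNFAIP3 (0.85 ± 0.21) and NFKBIA (0.54 ± 0.11). TNFAIP3 and NFKBIA are feedback inhibitors of NF-kappaB. Without the MMP12 and GPNMB sub-cluster none of the 11 tested genes of that list was called, with a median of 0.25. Of 8 tested genes of the alternative activation list none was called in either direction, with a median of 0.31, and C1QA differed by 0.18 ± 0.27 (adjusted p = 0.859). Of 11 genes of immediate early and heat shock response, 10 were tested and 3 were lower with ARG1 (ATF3, HSPB1 and HSPA8), none higher, and the same 3 of 9 were lower without that sub-cluster. That list was chosen after values had been seen. It did not hold CRYAB, a small heat shock protein gene that was higher with ARG1 (2.67 ± 0.38). The 3 genes therefore do not stand for heat shock genes as a whole.

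**Figure D5:**
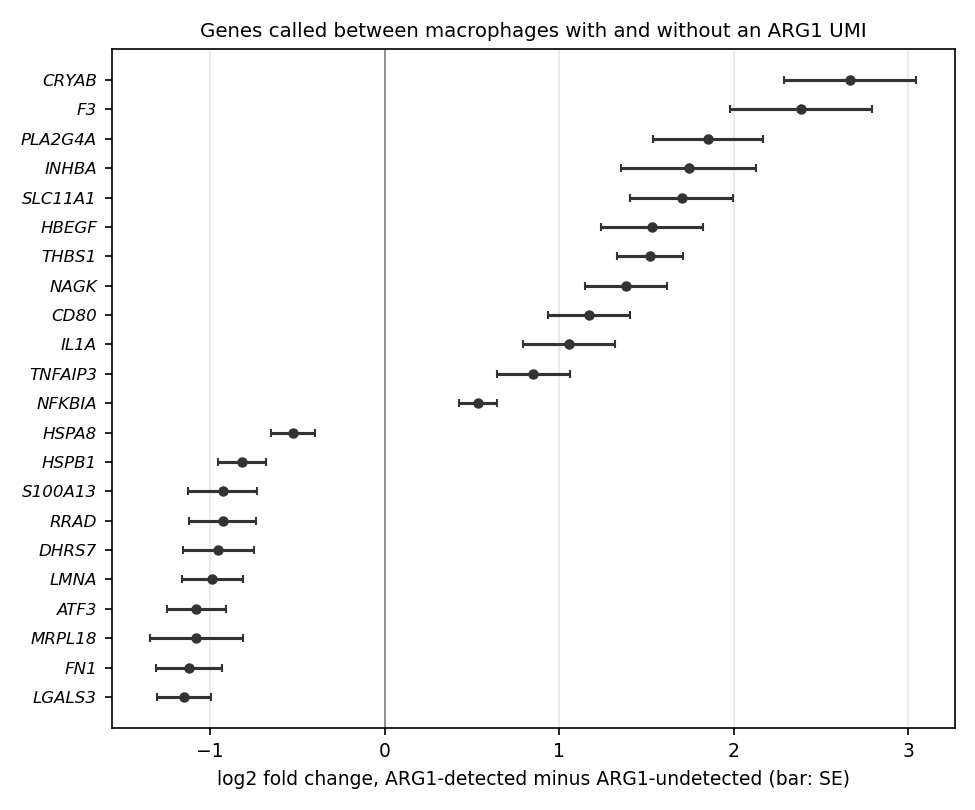
log2 difference (x axis; bars are the SE) of the named genes (y axis) called between C1Q macrophages with and without an ARG1 UMI, over 3 rabbits. CRYAB and F3 lie furthest to the right at 2.67 and 2.38, and LGALS3 and FN1 furthest to the left at -1.15 and -1.12.

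Of the other listed genes of arginine use, those with a symbol in the files were scarce in these cells. DDAH2 reached the highest mean of them, 31.8 CPM ± 11.7 (SD, n = 4) in C1Q macrophages. NOS2, which makes nitric oxide from arginine, the arginine transporter SLC7A2 and CPS1 of the urea cycle had 0 UMIs in C1Q macrophages, S100A8/S100A9-high cells and MHC class II-high cells of all samples. ARG2, the mitochondrial arginase, had 10 UMIs in all C1Q macrophages (0 to 3.31 CPM by sample), 5 in S100A8/S100A9-high cells and 36 in MHC class II-high cells, where it averaged 12.1 CPM ± 3.59 (SD, n = 4). ARG1 had 5285, 3267 and 2046 UMIs in the same classes. Of the 20 genes of the arginine list 10 had a symbol in the files, and 1 or 0 passed the filter in each comparison.

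Along the way from ornithine, 5 of 16 listed genes had a symbol. SMOX, spermine oxidase, averaged 133 CPM ± 26.1 in C1Q macrophages and 252 ± 65.6 in S100A8/S100A9-high cells, and it was called lower in macrophages, while OAZ2, an inhibitor of ornithine decarboxylase, averaged 127 ± 44.8 and 34.6 ± 8.80 (SD, n = 4 each) and was called higher. None of the tested members was called between Injury and Normal or with ARG1 detection. Genes of both lists without a symbol in the files were not analysed here.

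The genes most like ARG1 over 48 sums of class and sample, which share libraries and differ in depth, were general myeloid genes. Among 2833 genes with a symbol and a mean of at least 20 CPM, the highest Pearson's r on log2(CPM + 10) was that of AIF1 (r = 0.96, Spearman's rho = 0.81), followed by MPEG1, a pore-forming protein of phagocytes (0.93, 0.78), CFP (0.91, 0.76), RNASE6 (0.90, 0.73) and CD80 (0.90, 0.68). HLA-DQB1, IL1B, HLA-DMA, IL1RN and CD83 completed the 10, with r from 0.87 to 0.84. Over the 19 myeloid sums alone r was 0.82 for AIF1, 0.81 for CD80, 0.77 for MPEG1 and 0.77 for HLA-DMA. For CD83 and HLA-DQB1 it was 0.74 and 0.69. CFP (0.12), RNASE6 (0.02), IL1B (0.05) and IL1RN (-0.30) did not stay close.

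IL1B, the gene of interleukin 1 beta, took a large share of the counts that CPM is relative to. It stood at 34917, 32848, 50456 and 85305 CPM in C1Q macrophages and at 72386, 81099, 93064 and 101703 CPM in S100A8/S100A9-high cells. Leaving IL1B out of the counts moved the Injury difference of ARG1 in macrophages to -1.79 (adjusted p = 0.0593).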

How the data were processed

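Libraries were made with the Chromium Single Cell 3' v3 kit, and the authors deposited raw UMI counts per gene and cell barcode, written by Cell Ranger 6.0.1 per the file headers. The genome build is not given in the sources used here, and no coordinates are stated. The study's filter (at least 500 UMIs and 200 genes, at most 15% mitochondrial UMIs) was applied here. Seurat 5.3.0 (R 4.3.3) was used to integrate the 4 samples and to cluster their cells (2000 variable genes without ARG1, 30 components, resolution 0.8), and myeloid clusters were clustered again on 20 components. Clusters were named from marker lists with at least 3 markers raised. A cluster stayed unnamed if a second class scored close to the first, or if more of its leading genes marked another class. So did clusters of low UMIs with no own marker among the leading genes. Clusters with most cells among the 5% of highest Scrublet scores (scanpy 1.11.5) stayed unnamed, and no other cell was removed as a doublet.

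UMI counts were summed per sample and class (at least 10 cells) and tested with edgeR 4.0.16 (filterByExpr, TMM, glmQLFit, glmQLFTest), with the rabbit as a block between classes. Over all genes, p-values were adjusted as Benjamini and Hochberg describe, and an adjusted value under 0.05 was called. Some of the fits were also run on simulated sums with a fixed dispersion and no differences between rabbits. Those runs do not gauge the spread between rabbits. Exact tests were two-sided and cannot pass the threshold with 4 pairs or with 2 samples against 2. The limit for a count of 0 is 3 counts. Replicate samples are separate rabbits as the study describes them.

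Named genes are ARG1, members of the lists and markers, the called genes that rose most (8) and fell most (8) in a comparison (a symbol, at least 20 CPM, the same side in every sample), and the 10 genes most like ARG1. The members, lists and tests were chosen with earlier results of these data known. The comparisons of sub-clusters, of C1Q detection and within MHC class II-high cells, and the rule on doublet-rich clusters, were chosen once values were known. Alternatives were DESeq2 1.42.0, other filters, scalings, cell groups and depths, the sample number as a block and fits without each sample.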

Additional observations from a re-analysis of the deposited data

How the results depend on the processing

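The difference of ARG1 between C1Q macrophages and S100A8/S100A9-high cells passed the threshold with DESeq2 (-0.39), in macrophages with a C1Q UMI (-0.51) and against the SERPINB2-high sub-cluster (-0.49), and it changed sign with library totals (0.0897) and against the S100A12-high sub-cluster (1.98). With single samples left out it ran from -0.62 (without Normal 2, past the threshold) to -0.20. The Injury difference in C1Q macrophages kept its sign in all 19 other settings. It missed the threshold with upper-quartile factors (-1.76), a mitochondrial limit of 10% (-1.65), finer sub-clusters at resolution 1.2 (-1.79), a gate on C1Q and S100A8/S100A9 UMIs (-1.21), IL1B left out (-1.79), macrophages with a C1Q UMI (-1.44), the C1QA and MRC1 sub-cluster alone (-1.25) and no MMP12 and GPNMB sub-cluster (-1.35), and single samples moved it from -1.91 (without Injury 1, not past the threshold) to -1.60. The genes called there were 19 as reported, 162 with DESeq2 and 219 with no filter on low counts. In S100A8/S100A9-high cells the Injury difference passed the threshold with DESeq2 (-1.58) and ran from -1.79 to -1.21 with single samples left out, in MHC class II-high cells from -1.21 to 0.0685, and for the difference between the 2 myeloid classes from -0.72 to 0.0058. The thinned detection gap between Injury and Normal, -17.3 percentage points in C1Q macrophages and -19.1 in S100A8/S100A9-high cells, was 2.19 and -3.56 without thinning, where depth differs between the samples. The set of cells differs as well, since the unthinned shares keep the shallow cells that thinning left out. In the S100A8/S100A9-high class these were nearly all S100A12-high. The genes that went with ARG1 detection numbered 163 with no filter on low counts, 22 without the MMP12 and GPNMB sub-cluster and 5 to 86 with single samples left out, and FN1 changed sign there (0.0512 without that sub-cluster). For the 72 genes other than ARG1 taken as those of largest change (85 pairs of a gene and a comparison), 1 of 1166 recomputed values changed sign, that of FN1; genes named only from lists were not among them. The cause of these changes was not tested. Library totals, IL1B, C1Q UMIs and single sub-clusters were tried after the data were seen.

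Samples with the same number in Injury and Normal did not deviate together, with a correlation of their deviations of -0.0089 in C1Q macrophages, -0.13 in S100A8/S100A9-high cells and 0.0723 in MHC class II-high cells, so the numbers were not taken as pairs. With the number as a replicate block the Injury difference in C1Q macrophages was -1.81 (adjusted p = 0.103, edgeR) and 6 genes were called, and in S100A8/S100A9-high cells 6 genes were called with the numbers crossed against 0 uncrossed (114 at an unadjusted p under 0.05). Cells of the same rabbit do form pairs, and without that replicate block 0 genes went with ARG1 detection (131 at an unadjusted p under 0.05). With 2 rabbits a group, and 38 and 52 C1Q macrophages in the Normal samples, smaller differences could not be detected at this depth.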
